A study of Mus musculus with 16 samples.

Results

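The genes described here encode the enzymes and regulators of cholesterol and fatty acid synthesis, in 16 B16-OVA tumors treated with a MEK inhibitor, an anti-CD40 antibody or both. They were chosen by name from these pathways, with no measured value in the rule but with earlier results of these data known. The list holds 33 genes: 19 of the sterol branch, 3 regulators and 11 of the lipogenic branch. Of these, 32 had a probe set carrying their symbol alone, among 18193 genes and 45037 probe sets on the array. Acat2 was the exception and was not measured. All 32 lay above a background of 4.95 on the log2 scale, the 95th percentile of 43 olfactory receptor probe sets.

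All tumors grew from 1 line, B16-OVA, a melanoma of mice engineered to make the model antigen ovalbumin, under the flank skin of C57BL/6-Ly5.1 mice aged 6 to 12 weeks at injection. The 4 groups had 4 mice each. Control mice received vehicle (MCT) and control IgG, CD40 mice received vehicle and the anti-CD40 antibody (CD40 mIgG1), MEKi mice received the MEK inhibitor GDC-0623 at 30 mg/kg and control IgG, and MEKi+CD40 mice received both drugs. Inhibitor or vehicle was given every day for about 2 weeks. Antibody was given on treatment days 3, 5 and 7 and again 1 day before analysis, and tumors were taken on day 18. CD40 is a receptor on antigen-presenting cells such as dendritic cells, macrophages and B cells. MEK is a kinase of the growth signaling cascade that leads to ERK. RNA came from pieces of the tumors, so the content of other tissue given below is that of the material sampled. Values are log2 array signals of unsorted tissue, so fewer cells of a type and less RNA per cell cannot be told apart. A level is compared between tumors for 1 probe set at a time, and a difference of -1 means 2-fold lower signal.

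Cells make cholesterol from acetyl-CoA through mevalonate, farnesyl diphosphate and squalene, and they make fatty acids from the same acetyl-CoA. Both branches are switched on by the transcription factors SREBP2, encoded by Srebf2, and SREBP1, encoded by Srebf1. SREBP proteins are held in the endoplasmic reticulum by Insig proteins while sterols are plentiful and are cut free when sterols run low. Insig1 is itself a target gene of these factors, so the pathway holds a feedback loop, and liver X receptors raise Srebf1 and sterol export when oxysterols accumulate. Macrophages change both branches during inflammatory activation, and dividing tumor cells use them for new membrane.

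RefSeq promoter windows of 300 bases (250 before and 50 after a gene start, build GRCm38.p6) were at hand for 25 of the 32 measured members. SREBP binds together with NF-Y, whose core motif is CCAAT, and with Sp1, whose core is GGGCGG. Searched on both strands, CCAAT occurred in 22 of these 25 genes and in 41.1% of all 27025 genes with a window, and GGGCGG in 20 of 25 against 38.2%. The E-box CACGTG occurred in 4 (Dhcr7, Hsd17b7, Insig1 and Sc5d) against 8.09% of all genes. The sterol regulatory element spelled TCACCCCAC occurred in 1, Hmgcs1, against 0.614%, and the looser spelling TCACNCCAC, which contains the first, in no further member against 1.44%. A match is a description of letters only. The 250 bases before the start are given for 5 members: Hmgcs1, the gene with the sterol element, Mvk, the one with most CCAAT matches, Insig1, the feedback gene with an E-box, Fasn, the fatty acid synthase gene, and Elovl6, in which none of the motifs was found. Capitals mark TCACCCCAC, CACGTG and CCAAT or its reverse complement ATTGG, and in Fasn a forward and a reverse match overlap.
Hmgcs1 (chr13:119690101-119690350, plus strand): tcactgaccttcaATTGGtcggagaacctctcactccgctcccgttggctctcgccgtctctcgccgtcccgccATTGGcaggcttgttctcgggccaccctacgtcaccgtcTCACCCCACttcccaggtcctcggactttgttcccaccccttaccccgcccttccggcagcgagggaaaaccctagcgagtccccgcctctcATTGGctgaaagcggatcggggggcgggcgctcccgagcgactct
Mvk (chr5:114444019-114444268, plus strand): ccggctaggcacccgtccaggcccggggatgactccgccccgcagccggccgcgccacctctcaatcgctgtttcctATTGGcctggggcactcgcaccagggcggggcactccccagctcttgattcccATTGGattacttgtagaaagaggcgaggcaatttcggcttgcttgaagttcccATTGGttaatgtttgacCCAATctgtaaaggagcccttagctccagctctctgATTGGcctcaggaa
Insig1 (chr5:28071162-28071411, plus strand): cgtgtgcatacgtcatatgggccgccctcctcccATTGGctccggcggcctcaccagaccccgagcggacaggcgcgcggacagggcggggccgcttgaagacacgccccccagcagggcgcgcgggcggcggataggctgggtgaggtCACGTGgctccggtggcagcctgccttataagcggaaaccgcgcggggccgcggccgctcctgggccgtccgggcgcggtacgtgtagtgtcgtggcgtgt
Fasn (chr11:120824548-120824797, minus strand): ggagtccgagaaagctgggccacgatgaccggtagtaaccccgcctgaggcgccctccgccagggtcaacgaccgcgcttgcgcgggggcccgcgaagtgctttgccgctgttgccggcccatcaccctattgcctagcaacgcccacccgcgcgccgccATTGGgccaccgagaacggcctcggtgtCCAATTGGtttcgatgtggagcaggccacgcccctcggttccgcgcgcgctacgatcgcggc
Elovl6 (chr3:129532136-129532385, plus strand): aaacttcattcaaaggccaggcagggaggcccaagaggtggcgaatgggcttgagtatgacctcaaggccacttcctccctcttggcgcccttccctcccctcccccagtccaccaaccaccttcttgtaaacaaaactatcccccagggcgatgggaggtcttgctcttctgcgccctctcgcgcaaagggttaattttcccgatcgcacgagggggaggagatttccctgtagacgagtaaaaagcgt
In Hmgcs1 the sterol element began 137 bases before the start, and in Insig1 the E-box began 101 bases before it. Mvk held 5 CCAAT matches in this stretch, between 173 and 14 bases before the start.

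Some tumors stood apart in their content of other tissue, and these values bear on what follows. Melanocyte markers, the check of the labelled tumor, were high in every tumor, with a mean of 8 markers between 13.45 and 13.76. Single markers differed in spread: Tyrp1 lay between 14.19 and 14.44, and Mitf between 12.43 in CD40 tumor 3 and 13.39 in control tumor 4. Whether the share of tumor cells was equal was not tested. Skeletal muscle markers were above the control mean by 3.20 in CD40 tumor 3, 7.38 in MEKi+CD40 tumor 1 and 4.58 in MEKi+CD40 tumor 3, and by at most 0.99 elsewhere. Fibroblast markers were above it by 2.07 to 3.25 in those 3 tumors and by 2.61 in MEKi tumor 3, against at most 0.45 elsewhere. Leukocyte markers averaged 8.61 in control, 10.10 in CD40, 7.06 in MEKi and 9.15 in MEKi+CD40 tumors, and all 8 were higher in CD40 than in control tumors at an unadjusted p under 0.05, against 3.33% of all probe sets. Without CD40 tumor 3, 1 of the 8 was higher at that level, against 3.02%, and their median difference was 1.04 in place of 1.53. Adipocyte markers, relevant because fat cells make lipid, were above background for 2 of 8 and lay within 0.31 of the control mean in every tumor but MEKi+CD40 tumor 1 (1.12) and tumor 3 (0.60). The part of other cells in the differences below was not tested beyond leaving tumors out.

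**Figure D1:**
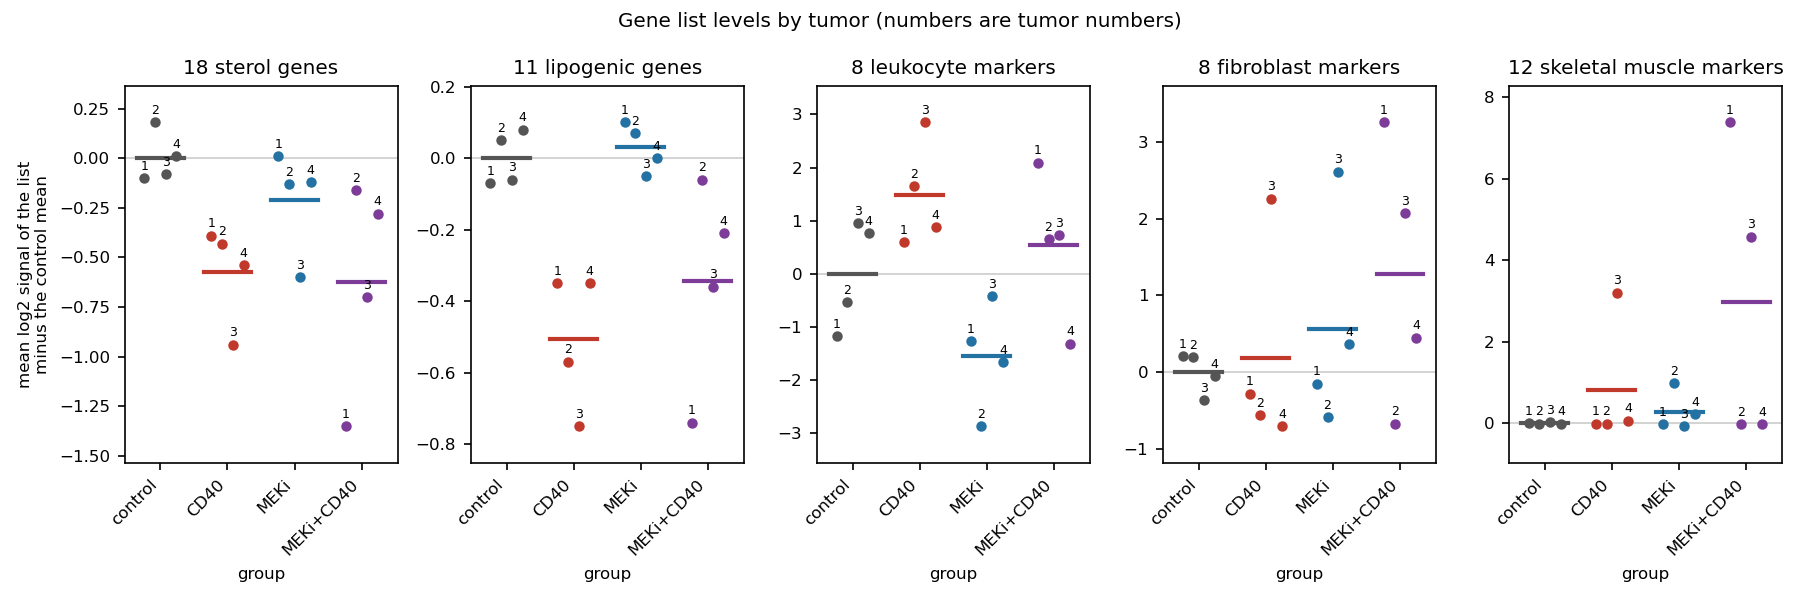
Mean log2 signal of 5 gene lists in each tumor minus the mean of the 4 control tumors (y axis), by treatment group (x axis); points are tumors with their number and bars are group means. The sterol level of all 4 CD40 tumors lay below all 4 control tumors, and the lowest sterol levels were in CD40 tumor 3, MEKi tumor 3 and MEKi+CD40 tumors 1 and 3, the tumors with the highest fibroblast marker levels.

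The comparison of CD40 with control tumors asked what the antibody did alone. All 32 members had lower mean signal in CD40 tumors, with a median difference of -0.56 against -0.025 over all probe sets. In the limma fit none passed an adjusted p of 0.05, nor did any probe set on the array (0%). At an unadjusted p under 0.05, 29 of 32 were lower, against 5.23% of all probe sets and 7.07% of those above background. For 24 of 32, every CD40 tumor lay below every control tumor, which held for 3.17% of all probe sets.

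**Figure D2:**
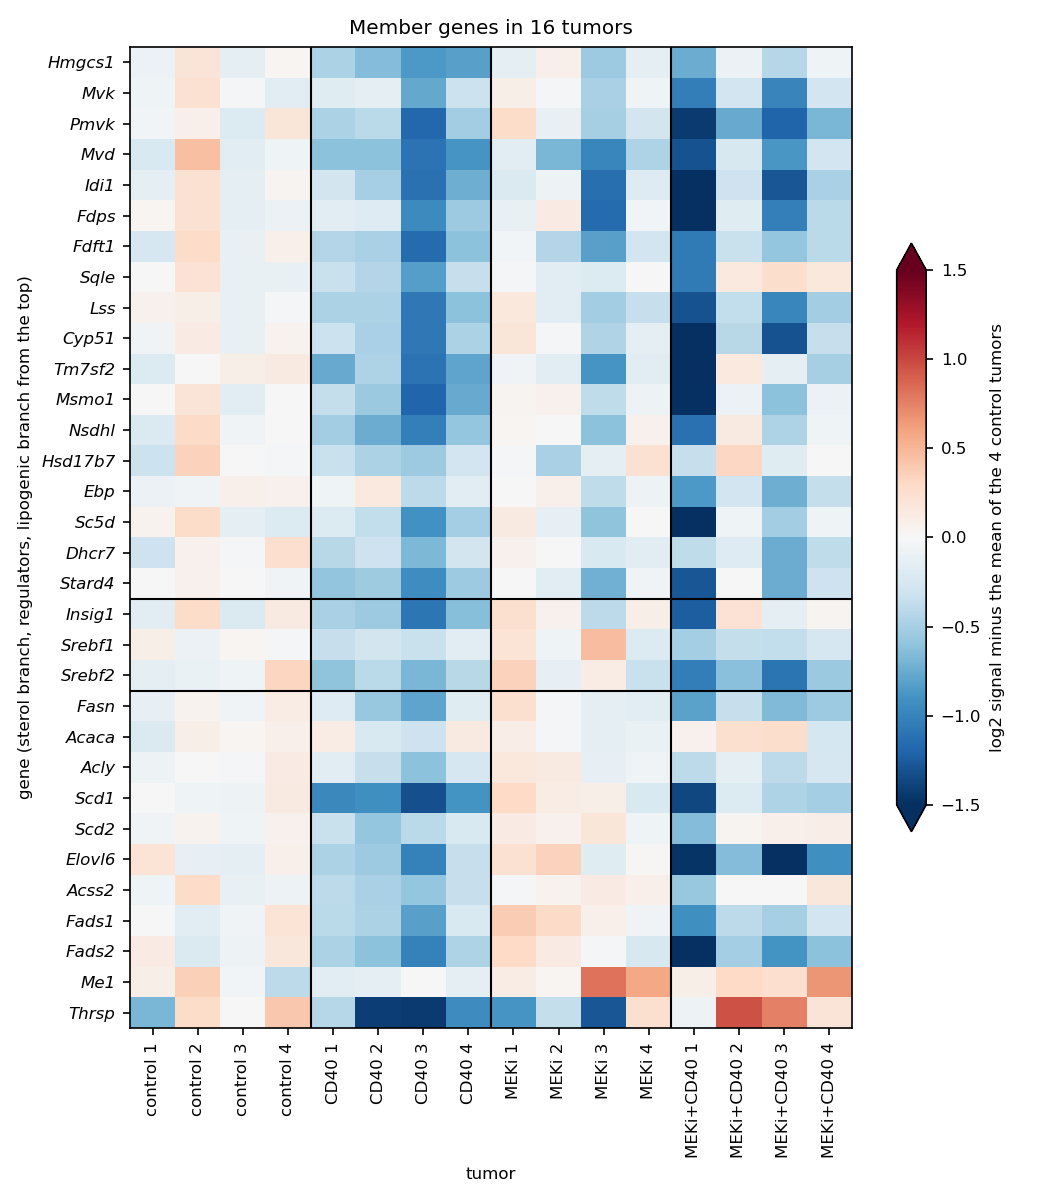
Log2 signal of the 32 measured members (rows: sterol branch, regulators, lipogenic branch) in 16 tumors (columns), each gene minus its mean in the 4 control tumors; blue is lower and red higher, and colors are capped at 1.5 in both directions. The CD40 columns are blue in nearly every row, the MEKi columns are close to white apart from Me1, Thrsp and the sterol rows of tumor 3, and the MEKi+CD40 columns are uneven, with tumor 1 the deepest blue.

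In the sterol branch, 17 of 18 measured genes were lower in CD40 tumors at an unadjusted p under 0.05, and in 13 the groups did not overlap. The median difference was -0.65, with a range from -0.80 to -0.12. Hmgcs1, which makes the HMG-CoA that feeds the pathway, read 11.60, 11.88, 11.56 and 11.72 in control tumors 1 to 4 and 11.21, 11.04, 10.83 and 10.87 in CD40 tumors 1 to 4. The groups were apart, and the difference was -0.70 (SE 0.11, adjusted p = 0.231), 1.63-fold lower. Stard4, a carrier of cholesterol between membranes, read 9.65, 9.72, 9.67 and 9.61 in control and 9.07, 9.13, 8.73 and 9.12 in CD40 tumors. Control tumors were tight for this gene (SD 0.05, n = 4), and the difference was -0.65 (SE 0.10, adjusted p = 0.231). Tm7sf2, a sterol reductase, read 8.73, 8.92, 9.02 and 9.06 in control and 8.17, 8.47, 7.82 and 8.14 in CD40 tumors, a difference of -0.78 (SE 0.14, adjusted p = 0.298). Nsdhl, a sterol dehydrogenase that acts after Msmo1, read 10.66, 11.17, 10.83 and 10.88 in control and 10.36, 10.14, 9.85 and 10.30 in CD40 tumors, a difference of -0.72 (SE 0.14, adjusted p = 0.352). In both genes the highest CD40 tumor lay below the lowest control tumor, and CD40 tumor 3 was the lowest of all.

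The lower signal ran along the whole route. Of the mevalonate enzymes, the difference was -0.80 for Mvd (SE 0.17), -0.65 for Pmvk (SE 0.17), -0.35 for Mvk (SE 0.15) and -0.65 for the isomerase Idi1 (SE 0.17). Farnesyl diphosphate synthase Fdps differed by -0.47 (SE 0.18) and squalene synthase Fdft1 by -0.67 (SE 0.17). Squalene is oxidized by Sqle, closed to lanosterol by Lss and trimmed by Cyp51 and Msmo1. These differed by -0.48 (SE 0.13), -0.67 (SE 0.13), -0.59 (SE 0.15) and -0.72 (SE 0.17). Of the later enzymes, Hsd17b7 differed by -0.41 (SE 0.13), Sc5d by -0.49 (SE 0.16), Dhcr7 by -0.41 (SE 0.13) and the isomerase Ebp by -0.12 (SE 0.11). In these 4 genes and in Mvk the groups overlapped. Ebp was the only sterol gene above an unadjusted p of 0.05. CD40 tumor 3 was the lowest of its group in 18 of 18 sterol genes, and without it 16 of 18 were lower at an unadjusted p under 0.05, against 3.75% of all probe sets, and the median difference was -0.48.

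All 3 regulators were lower in CD40 tumors, with no overlap. Insig1 read 11.19, 11.63, 11.14 and 11.49 in control and 10.87, 10.81, 10.28 and 10.72 in CD40 tumors, a difference of -0.69 (SE 0.16, adjusted p = 0.457). Srebf2 read 9.57, 9.62, 9.65 and 10.04 in control and 9.12, 9.31, 9.04 and 9.30 in CD40 tumors, a difference of -0.53 (SE 0.12, adjusted p = 0.457). Srebf1 had the smallest shift and the smallest spread, with 10.57, 10.39, 10.51 and 10.45 in control against 10.13, 10.21, 10.15 and 10.32 in CD40 tumors. Its difference was -0.28 (SE 0.08, adjusted p = 0.506). Without CD40 tumor 3 the differences were -0.56 for Insig1, -0.48 for Srebf2 and -0.26 for Srebf1.

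**Figure D3:**
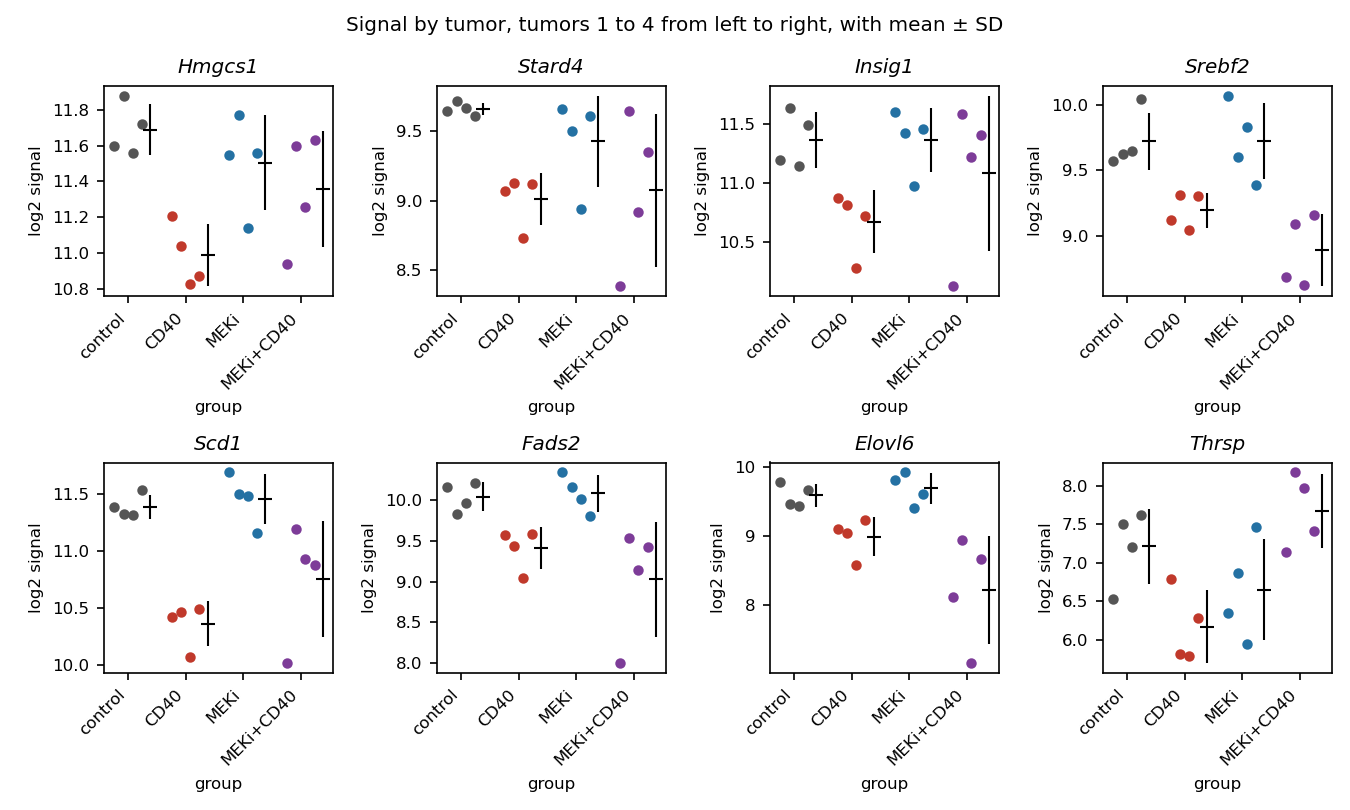
Log2 signal (y axis) of 8 members in the tumors of each group (x axis), with tumors 1 to 4 from left to right; bars to the right of the points are the group mean ± SD, n = 4. Scd1 has its lowest group mean in CD40 tumors, with 10.07 to 10.49 against 11.31 to 11.53 in control tumors, whereas Elovl6 has its lowest and Thrsp its highest group mean in MEKi+CD40 tumors.

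In the lipogenic branch, all 11 differences were negative, 9 had an unadjusted p under 0.05, and in 8 the groups did not overlap. The median difference was -0.45. Scd1, the desaturase that makes oleate from stearate, read 11.38, 11.32, 11.31 and 11.53 in control and 10.42, 10.47, 10.07 and 10.49 in CD40 tumors. The gap between the groups was several times the spread within them. Its difference of -1.02 (SE 0.11), 2.03-fold lower, ranked 3 of 45037 probe sets by p in this comparison, with an adjusted p of 0.0723. Without CD40 tumor 3 the difference was -0.93 (SE 0.08, adjusted p = 0.0713). Its relative Scd2 read 13.52, 13.62, 13.51 and 13.63 in control and 13.24, 12.99, 13.17 and 13.34 in CD40 tumors, a difference of -0.39 (SE 0.09, adjusted p = 0.466).

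Fads2, which starts polyunsaturated fatty acid synthesis, read 10.17, 9.83, 9.97 and 10.22 in control and 9.58, 9.44, 9.04 and 9.59 in CD40 tumors, a difference of -0.64 (SE 0.14, adjusted p = 0.446). Acss2, which makes acetyl-CoA from acetate, read 8.20, 8.54, 8.16 and 8.19 in control and 7.88, 7.78, 7.69 and 7.93 in CD40 tumors, a difference of -0.45 (SE 0.10, adjusted p = 0.466). Neither gene had overlapping groups. Elovl6, which lengthens palmitate, differed by -0.60 (SE 0.15), Fads1, the partner of Fads2, by -0.48 (SE 0.13), fatty acid synthase Fasn by -0.43 (SE 0.14) and citrate lyase Acly by -0.35 (SE 0.11). Thrsp, a lipogenic protein induced by thyroid hormone, had the most negative value of all members, -1.05 (SE 0.28), but control tumor 1 (6.53) lay below CD40 tumor 1 (6.79). The exceptions were acetyl-CoA carboxylase Acaca, at -0.07 (SE 0.12), and malic enzyme Me1, which supplies NADPH, at -0.12 (SE 0.14).

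**Figure D4:**
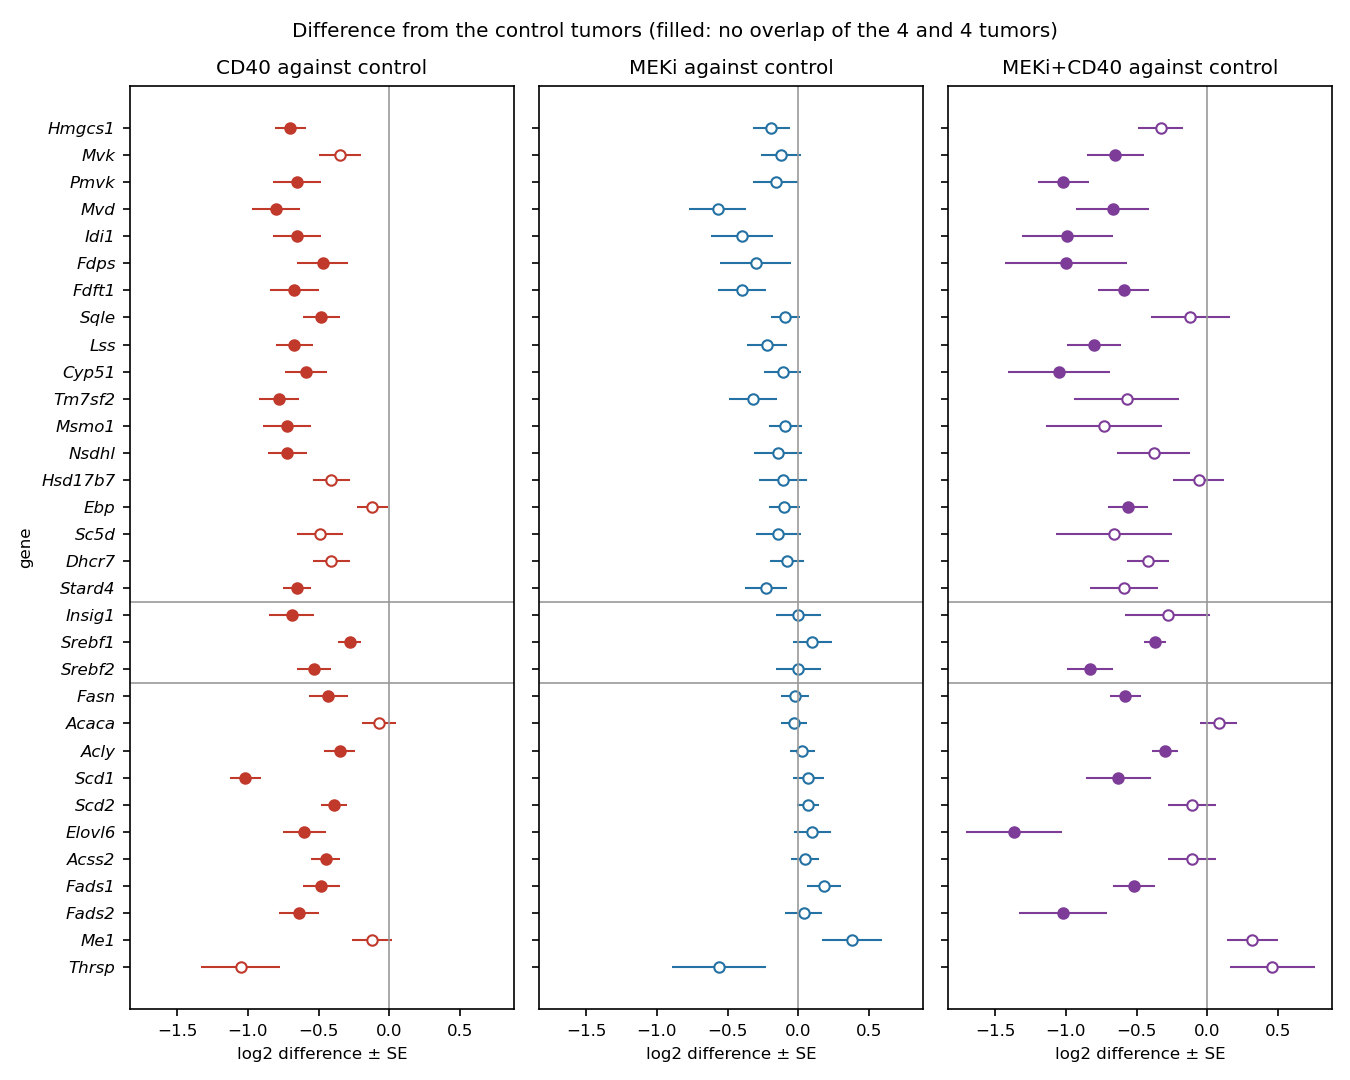
Log2 difference of each member from the control tumors ± SE (x axis) in CD40, MEKi and MEKi+CD40 tumors, with genes in rows by branch; filled points mark genes whose 4 treated and 4 control tumors did not overlap. In CD40 tumors all 32 points lie left of 0 and 24 are filled, in MEKi tumors none is filled, and in MEKi+CD40 tumors 29 lie left of 0 and 17 are filled.

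MEKi tumors were compared with the same 4 control tumors to see what the inhibitor did alone, so this comparison and the 2 others against control share samples. The members differed little: 22 differences were negative, with a median of -0.09 against 0.012 over all probe sets. None passed an adjusted p of 0.05, as for all probe sets (0%), and 2 of 32 were lower at an unadjusted p under 0.05, against 3.32% of all probe sets. No member had all 4 MEKi tumors below all controls, a pattern seen in 1.68% of probe sets. The 2 genes were Mvd, with -0.57 (SE 0.20, adjusted p = 0.652), and Fdft1, with -0.40 (SE 0.17, adjusted p = 0.713). Mvd read 8.85, 9.53, 8.91 and 9.02 in control and 8.91, 8.39, 8.10 and 8.62 in MEKi tumors, so MEKi tumor 1 reached the control range. Fdft1 read 10.70, 11.23, 10.84 and 11.03 in control and 10.91, 10.51, 10.13 and 10.66 in MEKi tumors, again with tumor 1 inside the control range.

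The 18 sterol genes all had a negative value in this comparison, from -0.57 to -0.08, but MEKi tumor 3 was the lowest of its group in 17 of them. Idi1 shows this: MEKi tumors read 10.51, 10.65, 9.60 and 10.54 against 10.58 to 10.96 in control tumors. Without MEKi tumor 3 the median difference of the sterol genes was -0.05 in place of -0.15. That tumor was among those with raised fibroblast markers. The same tumor was the lowest in 4 of 11 lipogenic genes, and the lipogenic median was 0.05. The regulators lay on the controls, at 0.00 for Insig1 (SE 0.16), 0.00 for Srebf2 (SE 0.16) and 0.10 for Srebf1 (SE 0.14). Me1 had the highest value, 0.38 (SE 0.21, adjusted p = 0.757), with MEKi tumors 3 (12.26) and 4 (12.02) above all controls. Thrsp differed by -0.56 (SE 0.33) and varied from 5.94 to 7.46 among MEKi tumors.

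MEKi+CD40 tumors were compared with controls for the combined treatment. Here 29 of 32 differences were negative, the median was -0.57 against 0.005 over all probe sets, and none passed an adjusted p of 0.05, against 4 probe sets on the array (0.00888%). At an unadjusted p under 0.05, 19 were lower, against 12.6% of all probe sets and 19.3% of those above background. The groups did not overlap for 17, against 8.55% of all probe sets. The smallest adjusted p was 0.0517, shared by Pmvk, Srebf2 and Fasn. These calls sat close to the threshold: with all 16 tumors in 1 fit 10 members passed, all of them lower, and so did 7.29% of all probe sets in that direction. In the sterol branch 11 of 18 had an unadjusted p under 0.05, in the lipogenic branch 6 of 11 and among the regulators 2 of 3.

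The MEKi+CD40 tumors were uneven. Tumor 1 was the lowest of its group in 17 of 18 sterol and 9 of 11 lipogenic genes, and tumor 2 was the highest in 13 of 18 and 6 of 11. The sterol level was below the control mean by a mean log2 difference of -1.35 in tumor 1, -0.16 in tumor 2, -0.70 in tumor 3 and -0.28 in tumor 4. Tumors 1 and 3 were those with muscle transcripts. Without them, the median sterol difference was -0.27 in place of -0.62, and 7 of 18 sterol genes were lower at an unadjusted p under 0.05, against 8.75% of all probe sets. With 2 tumors left, their spread is taken from the pooled fit.

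Hmgcs1 read 10.94, 11.60, 11.26 and 11.63 in MEKi+CD40 tumors, and its difference from control of -0.33 (SE 0.16) was -0.08 (SE 0.11) without tumors 1 and 3. Its 4 other probe sets gave -0.26, -0.52, -0.88 and -0.95 with all tumors, so the value for this gene depends on the probe set. Sqle read 10.84, 12.05, 12.16 and 12.06, so that only tumor 1 lay below the controls (11.79 to 12.12), and Msmo1 read 9.64, 11.67, 11.14 and 11.67 against 11.59 to 11.95. Pmvk, a mevalonate pathway kinase with 1 probe set, read 7.32, 7.99, 7.55 and 8.07 against 8.71, 8.83, 8.54 and 8.93 in control tumors, with no overlap. The difference was -1.02 (SE 0.18, adjusted p = 0.0517), and -0.72 (SE 0.12, adjusted p = 0.138) without tumors 1 and 3. Lss read 8.93, 9.87, 9.26 and 9.72 against 10.30, 10.33, 10.13 and 10.22, a difference of -0.80 (SE 0.19, adjusted p = 0.0635) that was -0.45 (SE 0.10) without tumors 1 and 3, and its 2 other probe sets gave -0.60 and -0.31 with all tumors. Ebp, which differed by -0.12 in CD40 tumors, read 10.08, 10.65, 10.21 and 10.58 against 10.85 to 11.02 in control tumors, a difference of -0.56 (SE 0.14, adjusted p = 0.0635) that was -0.32 (SE 0.10) without those tumors.

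Of the regulators, Srebf2 and Srebf1 were lower in all 4 MEKi+CD40 tumors and Insig1 was not. Srebf2 read 8.68, 9.09, 8.62 and 9.16, below all controls (9.57 to 10.04) and all MEKi tumors (9.39 to 10.07). Its difference from control was -0.83 (SE 0.16, adjusted p = 0.0517), and -0.60 (SE 0.14, adjusted p = 0.139) without tumors 1 and 3. The second probe set of Srebf2 gave a smaller value with all 4 tumors, -0.19 (SE 0.09), so the size of this difference is not settled. Srebf1 read 9.97, 10.12, 10.11 and 10.23, a difference of -0.37 (SE 0.08, adjusted p = 0.0552) that was -0.31 (SE 0.10) without those tumors. Insig1 read 10.12, 11.58, 11.22 and 11.40, and only tumor 1 lay below the controls. Its difference of -0.28 (SE 0.30) was 0.13 (SE 0.16) without tumors 1 and 3.

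In the lipogenic branch Elovl6 and Fads2 had the most negative values. Elovl6 read 8.12, 8.94, 7.16 and 8.67 in MEKi+CD40 tumors, against 9.79, 9.47, 9.44 and 9.67 in control and 9.82, 9.93, 9.41 and 9.61 in MEKi tumors. All 4 lay below all of those, and the difference from control was -1.37 (SE 0.34, adjusted p = 0.0677), 2.58-fold lower. Without tumors 1 and 3 it was -0.79 (SE 0.14, adjusted p = 0.138). Fads2 read 8.00, 9.54, 9.15 and 9.43, a difference of -1.02 (SE 0.31, adjusted p = 0.109) that was -0.56 (SE 0.13) without those tumors. Fads1 read 9.45, 9.98, 9.87 and 10.08 against 10.37, 10.21, 10.32 and 10.57, a difference of -0.52 (SE 0.15, adjusted p = 0.0870). Fasn had little spread, with 10.13, 10.58, 10.27 and 10.39 against 10.81, 10.98, 10.88 and 11.04. Its difference was -0.58 (SE 0.11, adjusted p = 0.0517), and -0.44 (SE 0.11) without tumors 1 and 3. Acly read 11.93, 12.18, 11.93 and 12.07 against 12.24 to 12.44, a difference of -0.30 (SE 0.09). Scd1, the gene furthest from control in CD40 tumors by p, differed by -0.63 (SE 0.23), with tumors at 10.02, 11.19, 10.93 and 10.88. Scd2 (-0.11, SE 0.17), Acss2 (-0.11, SE 0.17) and Acaca (0.08, SE 0.13) were close to control, and Me1 (0.32, SE 0.18) and Thrsp (0.46, SE 0.30) had positive values.

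**Figure D5:**
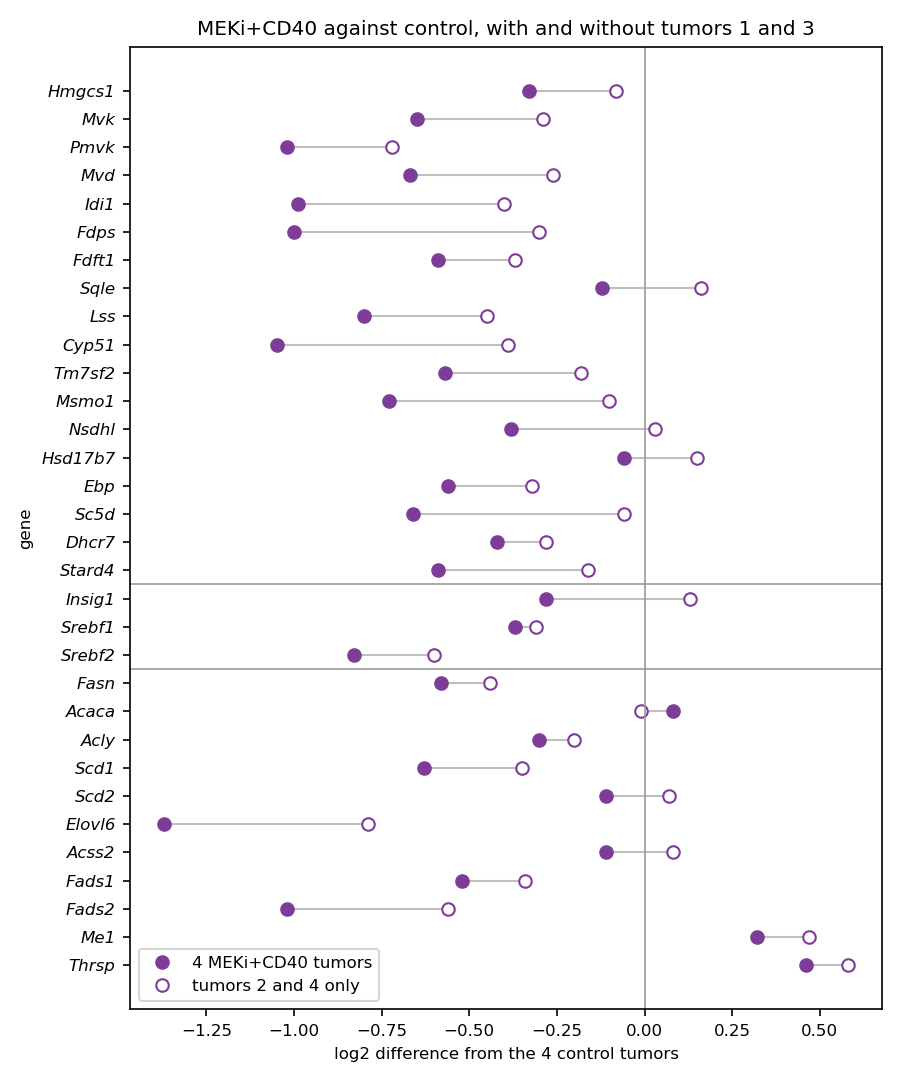
Log2 difference of each member between MEKi+CD40 and control tumors (x axis), with all 4 MEKi+CD40 tumors (filled) and with tumors 2 and 4 alone (open); rows are genes by branch, each from its brightest probe set. The open points of many sterol genes lie near 0, with a median of -0.27, whereas Elovl6 (-0.79), Pmvk (-0.72), Srebf2 (-0.60) and Fads2 (-0.56) stay to the left.

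The comparison of MEKi+CD40 with CD40 tumors asked what the inhibitor added to the antibody. The members split evenly, with 16 negative and 16 positive differences, a median of 0.02 and the same 0.02 over all probe sets. Of the 32, 1 was called at an adjusted p under 0.05, against 4.74% of all probe sets. At an unadjusted p under 0.05, 1 was lower, Ebp, against 10.6% of probe sets, and 3 were higher, Thrsp, Me1 and Hsd17b7, against 10.8%. The called gene was Thrsp, which rose 2.84-fold. It read 6.79, 5.81, 5.79 and 6.28 in CD40 and 7.14, 8.18, 7.97 and 7.41 in MEKi+CD40 tumors, so the groups did not overlap, and the difference was 1.51 (SE 0.29, adjusted p = 0.0350). The call was lost without any single CD40 tumor and without MEKi+CD40 tumor 3 or 4, with adjusted p from 0.0651 to 0.116, while the difference stayed between 1.38 and 1.72. Me1 was the other gene without overlap, with 11.28, 11.30, 11.44 and 11.29 in CD40 and 11.53, 11.74, 11.69 and 12.10 in MEKi+CD40 tumors. Its difference was 0.44 (SE 0.12, adjusted p = 0.0821). The share of all probe sets without overlap in this direction is not given, so the lack of overlap is not read as a result about the members.

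Without the 3 tumors with muscle transcripts, most sterol genes and Insig1 lay higher in MEKi+CD40 than in CD40 tumors. The tumors left out had the lowest sterol levels of their groups, and the fit rests on CD40 tumors 1, 2 and 4 and MEKi+CD40 tumors 2 and 4. Then 15 of 18 sterol differences were positive, with a median of 0.22, and 15 of 32 members were higher at an unadjusted p under 0.05, against 10.7% of all probe sets. Among them 3 were called higher, against 1.5% of all probe sets: Insig1 by 0.69 (SE 0.11, adjusted p = 0.0332), Nsdhl by 0.65 (SE 0.12, adjusted p = 0.0409) and Sqle by 0.52 (SE 0.10, adjusted p = 0.0425). Thrsp then missed the threshold at 1.50 (SE 0.32, adjusted p = 0.0554). Leaving out MEKi+CD40 tumor 1 alone gave 7 called members, all higher, against 4.23% of all probe sets called higher in that fit. Beside Thrsp these were Scd1 (0.64), Scd2 (0.46), Acss2 (0.50), Me1 (0.52), Sqle (0.68) and Insig1 (0.73). Srebf2 and Elovl6 were not part of this, at -0.12 (SE 0.11) and -0.33 (SE 0.13) without the 3 tumors. Of the sterol genes, Pmvk (-0.25, SE 0.10), Ebp (-0.30, SE 0.12) and Mvk (-0.08, SE 0.11) then had negative values. Idi1, Fdps, Lss, Cyp51 and Dhcr7 lay between 0.00 and 0.10.

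The comparison of MEKi+CD40 with MEKi tumors asked what the antibody added to the inhibitor. The median difference was -0.41 against -0.018 over all probe sets, and 29 of 32 were negative. None passed an adjusted p of 0.05 against 1.15% of all probe sets, 14 were lower at an unadjusted p under 0.05 against 11.8%, and 8 did not overlap against 7.83%. The 8 were Pmvk, Srebf1, Srebf2, Fasn, Acly, Elovl6, Fads1 and Fads2. Fads1 read 10.75, 10.66, 10.45 and 10.32 in MEKi tumors against 9.45 to 10.08 in MEKi+CD40 tumors, a difference of -0.70 (SE 0.16, adjusted p = 0.0594). Srebf2 read 10.07, 9.60, 9.83 and 9.39 in MEKi tumors and differed by -0.83 (SE 0.18, adjusted p = 0.0578), and Fasn read 11.17, 10.91, 10.78 and 10.77 and differed by -0.56 (SE 0.13, adjusted p = 0.0608). Elovl6 differed by -1.47 (SE 0.35, adjusted p = 0.0660). Thrsp was the 1 member higher at an unadjusted p under 0.05, against 8.5% of all probe sets, by 1.02 (SE 0.35, adjusted p = 0.146). The sterol median of -0.41 was 0.02 without the tumors with muscle transcripts and -0.10 when MEKi tumor 3 was left out as well. Elovl6 was then at -0.98 (SE 0.14), Fads1 at -0.55 (SE 0.15) and Srebf2 at -0.56 (SE 0.20).

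The test of whether the antibody's difference depended on the inhibitor, the interaction over all 16 tumors, called no member (0% of all probe sets). At an unadjusted p under 0.05, 1 member was lower against 7.44% of probe sets, Elovl6 at -0.87 (SE 0.40), and 2 were higher against 6.82%, Thrsp and Hmgcs1. Thrsp had the largest value, 2.07 (SE 0.48, adjusted p = 0.101): the antibody's difference was -1.05 with vehicle and 1.02 with the inhibitor. Hmgcs1 had 0.56 (SE 0.22, adjusted p = 0.263). Its other probe sets gave 0.57 (SE 0.21), 0.55 (SE 0.24), 0.35 (SE 0.53) and 0.36 (SE 0.40). When the probe sets of each gene were averaged, no sterol gene, Hmgcs1 included, was higher at an unadjusted p under 0.05. The Hmgcs1 result therefore depends on how its probe sets are handled. The median over the sterol genes was 0.08 with all tumors and 0.52 without the tumors with muscle transcripts, when 9 of 18 were positive at an unadjusted p under 0.05, against 6.54% of all probe sets, and none passed adjustment. With MEKi tumor 3 also left out, the sterol median was 0.35 and 8 of 18 were positive at an unadjusted p under 0.05, against 5.97%.

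Members with several probe sets gave a check within the array. Further probe sets existed for 23 members, and 35 of them were above background. In CD40 against control none of the 35 had the opposite sign to the brightest probe set of its gene, and in MEKi+CD40 against control 4 did, none at an unadjusted p under 0.05. The number with the opposite sign was 8 in MEKi against control and 13 in the interaction. It was 15 in MEKi+CD40 against CD40 and 5 in MEKi+CD40 against MEKi. For Elovl6 the second probe set differed by -0.57 in CD40 tumors and for Scd1 by -0.82. Thrsp had 2 others: one differed by -0.92 in CD40 tumors with an interaction of 1.40, and the other stayed at -0.02 and 0.07. The second probe set of Srebf2 differed by -0.44 in CD40 tumors, but against CD40 in MEKi+CD40 tumors it gave 0.24 (SE 0.10) where the first gave -0.31 (SE 0.14), so the direction for Srebf2 in that comparison is not settled. For Sc5d, dimmer probe sets had the opposite sign at an unadjusted p under 0.05 in MEKi against control (0.22, SE 0.08) and in MEKi+CD40 against CD40 (0.72, SE 0.31).

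Genes around the pathway were looked at from separate lists. Of 6 measured genes that process SREBP, none was lower or higher in CD40 tumors at an unadjusted p under 0.05, and the median was -0.01: the SREBP escort Scap was at 0.06 (SE 0.10) and the protease Mbtps2 at 0.02 (SE 0.09). In MEKi+CD40 against CD40 tumors 2 of the 6 were called, against 4.74% of all probe sets. Insig2, the second Insig gene, rose by 0.71 (SE 0.13, adjusted p = 0.0318), and Mbtps2 fell by 0.33 (SE 0.07, adjusted p = 0.0437). Insig2 read 11.17, 10.84, 11.06 and 11.03 in CD40 and 11.41, 11.79, 11.94 and 11.79 in MEKi+CD40 tumors, with no overlap. Without the tumors with muscle transcripts Insig2 was still called and Mbtps2 was not. Of 11 other sterol synthesis and uptake genes, 4 were lower in CD40 tumors at an unadjusted p under 0.05 and 1 was higher. The shares over all probe sets were 5.23% and 3.33%. Pcyt2, of phosphatidylethanolamine synthesis, differed by -0.54 (SE 0.13, adjusted p = 0.472) and the lipoprotein receptor gene Vldlr by 0.57 (SE 0.20, adjusted p = 0.541). Lbr, which shares a reductase activity with Tm7sf2, fell in MEKi+CD40 against CD40 tumors by 0.75 (SE 0.15, adjusted p = 0.0364), with 11.06, 11.13, 10.88 and 11.04 in CD40 and 10.20, 10.43, 9.89 and 10.60 in MEKi+CD40 tumors.

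A list of 12 measured genes held liver X receptor targets, sterol export genes, oxysterol enzymes and the receptor gene Nr1h3. In CD40 tumors 4 were higher and 1 lower at an unadjusted p under 0.05, against 3.33% and 5.23% of all probe sets. The median was 0.34. In MEKi+CD40 against control 7 were higher, against 8.6% of all probe sets, with a median of 0.41, and none was called in either comparison. Ch25h, which makes an oxysterol that restrains SREBP, read 6.20, 6.98, 6.79 and 7.57 in control and 7.73, 8.91, 8.57 and 6.76 in CD40 tumors, a difference of 1.11 (SE 0.45, adjusted p = 0.572). CD40 tumor 4 lay within the control range. Lpcat3, a phospholipid remodeling enzyme, had the opposite sign, with 10.83, 10.76, 10.63 and 10.71 in control and 10.36, 10.29, 10.20 and 10.38 in CD40 tumors, a difference of -0.43 (SE 0.08, adjusted p = 0.301). Several genes of this list are expressed by macrophages, and macrophage markers averaged 8.12 in control and 9.48 in CD40 tumors. Without CD40 tumor 3 the list's median was 0.06 and 1 gene was higher at an unadjusted p under 0.05, against 3.02%.

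Among 19 other fatty acid synthesis genes, 3 were lower in CD40 tumors at an unadjusted p under 0.05, against 5.23% of all probe sets. They included the citrate carrier Slc25a1 at -0.39 (SE 0.08, adjusted p = 0.422), which exports the substrate of Acly. It read 9.48, 9.77, 9.57 and 9.51 in control and 9.23, 9.23, 9.13 and 9.16 in CD40 tumors. Of 16 triglyceride genes, Lpin1, a phosphatidate phosphatase, had the smallest p in CD40 tumors, with 8.89, 8.74, 8.90 and 8.77 in control and 8.16, 8.14, 8.15 and 8.37 in CD40 tumors, a difference of -0.62 (SE 0.08, adjusted p = 0.151). It rose in MEKi+CD40 against CD40 tumors by 0.49 (SE 0.09, adjusted p = 0.0340), a call lost without the tumors with muscle transcripts. Of 13 fatty acid oxidation genes 4 were lower in CD40 tumors at an unadjusted p under 0.05, again against 5.23%. Ehhadh, a peroxisomal enzyme, was at -0.69 (SE 0.12, adjusted p = 0.298).

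Proliferation genes gave another pattern than the members in CD40 tumors. Of 11 measured, none was lower there at an unadjusted p under 0.05 (median -0.06), against 5.23% of all probe sets. In MEKi+CD40 tumors all 11 were lower than in control tumors at that level (median -1.19), against 12.6%. Against CD40 tumors 9 were called lower, as were 1106 of all 45037 probe sets. Pcna, the DNA polymerase clamp, fell in MEKi+CD40 against CD40 tumors by 0.92 (SE 0.16, adjusted p = 0.0305). Whether the lower proliferation genes had a part in the member differences of MEKi+CD40 tumors was not tested.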

How the data were processed

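Pieces of B16-OVA tumors of 4 mice per group were profiled from 200 ng RNA on Affymetrix whole-genome mouse arrays. The deposited values are log2 signals that the authors made with RMA in Chipster (versions not given in the sources used here), 1 column per tumor. The 64 Affymetrix control rows were left out, leaving 45037 probe sets, of which 34945 carried 1 gene symbol. Each gene was read from its brightest such probe set. Groups were compared with limma 3.58.1 in R 4.3.3 (lmFit and eBayes on the 8 tumors of a pair, all 16 for the interaction), with Benjamini-Hochberg adjustment over all probe sets and a threshold of 0.05. The fit was tested on simulated data. Tables, motif searches and figures used Python 3.11.15 with pandas 2.3.3, numpy 2.4.6 and matplotlib 3.10.9. The number of arrays limits the precision. Array medians lay between 5.66 and 5.75.

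The members, gene lists and the 3 tumors with muscle transcripts were chosen with earlier results of these data known, so no test of a list was made. Values per tumor are given for the members with the smallest p in each branch and for the regulators, and other genes for the smallest p in their list. Alternatives were another set of arrays in the fit, a block for the tumor number, a filter on low signal, the handling of probe sets, 2 further normalizations, 2 variance models and leaving out tumors. Leaving out MEKi tumor 3 together with the 3 tumors was chosen after seeing the data. Some items are not reported here.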

Additional observations from a re-analysis of the deposited data

Results flagged for a closer look

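A single tumor stood far from the other 3 of its group in 11 of 128 combinations of member and group. The threshold is one that chance passes in about 1 group in 20 when groups are independent, and members measured in the same tumors are not. In CD40 tumor 3 the log2 signal of Pmvk was 7.57 against 8.23 to 8.34 in the others, that of Stard4 8.73 against 9.07 to 9.13, that of Scd1 10.07 against 10.42 to 10.49, and that of Me1 11.44 against 11.28 to 11.30. In MEKi tumor 3 Idi1 was at 9.60 against 10.51 to 10.65, Tm7sf2 at 8.05 against 8.76 to 8.88 and Nsdhl at 10.27 against 10.88 to 10.94. In MEKi+CD40 tumor 1 Sqle was at 10.84 against 12.05 to 12.16 and Scd2 at 12.92 against 13.61 to 13.67. Among controls, Srebf2 in tumor 4 was at 10.04 against 9.57 to 9.65 and Acss2 in tumor 2 at 8.54 against 8.16 to 8.20. Of the 11, 9 were in tumors with raised fibroblast markers. The part of that tissue in these values was not tested.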

How the results depend on the processing

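No member called in the reported fit or in an alternative reversed its direction between them. Over all members, comparisons and alternatives, 3619 values kept their side of the threshold, 84 passed it only in the alternative and 9 lost it. Values that were not called could change sign. Insig1 in MEKi+CD40 against control was at -0.28, and at 0.13 without the tumors with muscle transcripts. Members called in MEKi+CD40 against control, 0 in the fit reported, numbered 10 with all 16 arrays in 1 fit, 7 with the filter on low signal, 6 with 1 probe set per gene, 4 with the mean of all probe sets, 3 with trend and robust eBayes and 6 with array weights. Against MEKi, also 0, they numbered 8, 4 and 3 for the first of these alternatives and 5 with array weights. Against CD40, 1 was called, and 2 with cyclic loess, 3 with array weights, 3 without the tumors with muscle transcripts and 0 with the mean of all probe sets. In CD40 against control Scd1 was the 1 member called with trend and robust eBayes and with array weights. In the interaction 1 was called with array weights. Counts over all probe sets are given below for the fits with all arrays, the filter, 1 probe set per gene and the block. For the mean of probe sets, cyclic loess, the eBayes variant and array weights they are not given. The member counts from those fits are therefore not read as results about the members. The labels do not say whether the tumor numbers mark pairs, and a shared cage or day was not tested. Same-number tumors deviated with correlations from -0.52 to 0.47 and 7 of 24 over 0.1, and the tumors were not treated as pairs. With a replicate block the 1 call against CD40 became 0.

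Leaving out 1 tumor at a time gave 0 to 6 called members in MEKi+CD40 against control. There were 6 without MEKi+CD40 tumor 2, 4 without tumor 1 and 1 without control tumor 2. Against CD40 the range was 0 to 7 (7 without MEKi+CD40 tumor 1). Against MEKi it was 0 to 2 (2 without MEKi+CD40 tumor 2), and it was 0 to 0 in the other comparisons. A share over all probe sets is given only beside the 7, with 4.23% called higher. The other counts from these fits are not read as results about the members. The sterol median then ranged from -0.70 to -0.48 in CD40, -0.22 to -0.05 in MEKi and -0.79 to -0.43 in MEKi+CD40 against control, from -0.18 to 0.26 against CD40, -0.55 to -0.15 against MEKi and -0.03 to 0.48 in the interaction. Without the tumors with muscle transcripts it was -0.27 against control, 0.02 against MEKi and 0.52 in the interaction. With the mean of all probe sets the lipogenic median of MEKi+CD40 was -0.48 against control and -0.56 against MEKi. Causes were not tested.

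Over all probe sets, the count called moved from 4 to 4904 (all 16 arrays), 2053 (filter), 1243 (1 per gene) and 0 (block) in MEKi+CD40 against control, from 2133 to 5309 and 0 (block) against CD40, from 518 to 4699, 1623, 853 and 0 against MEKi, and from 0 to 2 (1 per gene) in MEKi against control. With 4 tumors per group, calls near the threshold moved with the number of arrays in the fit.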
